A study of Mus musculus with 96 samples.

Results

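The interferon-induced GTPases followed here are 9 genes of the deposited count table, chosen by name: the guanylate-binding protein genes Gbp2, Gbp3, Gbp6, Gbp7 and Gbp9 and the immunity-related GTPase genes Igtp, Irgm1, Irgm2 and Iigp1. They are 9 of the 35486 genes of the table, and each was read in every library. The choice was made with earlier results of these data known. The libraries came from male C57BL/6J mice in which the cerebellum, cortex and hippocampus were dissected and sequenced as bulk mRNA. The study asked how age and injections of young plasma change the transcriptome of each region. In the first experiment, 29 mice gave 87 libraries. Naive mice, which had no injections, were 2 months (4 mice) or 18 months old (3 mice). The label PBS marks injection of phosphate-buffered saline on 7 consecutive days, at 18 months (4 mice) or 22 months (3 mice), and the label OPL marks young plasma on the same schedule at 18 months (5 mice) or 22 months (3 mice). The labels OPLTPBS (4 mice) and OPLTOPL (3 mice) mark PBS or young plasma on 24 consecutive days in mice of 19 months. A second experiment added 9 hippocampus libraries, 4 from PBS mice and 5 from plasma mice of 18 months. No genetic change is labelled for any group. The youngest mice are labelled as 2 months old, whereas the series text calls the young age 3 months. A number in the library titles, whose meaning is not given, differed wholly between the naive ages and between PBS at 18 and 22 months. It also differed wholly between PBS and naive mice of 18 months, and between the 24-day PBS and plasma groups. In these comparisons the number cannot be told apart from age or treatment. Between PBS and plasma mice of 18 months and of 22 months in the first experiment, only some mice had a number found in both groups.

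Both families are induced by interferons. Interferon gamma acts on its target genes through the gamma-activated site (GAS), and type I interferons act through the interferon-stimulated response element (ISRE). Guanylate-binding proteins are large GTPases that assemble on the membranes of vacuoles holding bacteria or parasites and help to open them. The immunity-related GTPases split into effectors such as Iigp1 (also called Irga6), which load onto such vacuoles, and regulators, Irgm1, Irgm2 and Igtp (also called Irgm3), which sit on membranes of the cell itself and keep the effectors inactive there. In the brain, microglia, astrocytes and endothelial cells can all respond to interferon.

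The members lie in separate places of the mouse genome (GENCODE M21, GRCm38, the build named in the submitters' processing notes), all as protein-coding genes. Gbp7 (chr3:142530342-142550149), Gbp3 (chr3:142560026-142573209) and Gbp2 (chr3:142620602-142638008) are neighbours on the plus strand, and Gbp9 (chr5:105077630-105139539) and Gbp6 (chr5:105270702-105293698) lie on the minus strand of chromosome 5. Irgm1 (chr11:48861968-48871683, minus strand) stands apart from Igtp (chr11:58199556-58207591) and Irgm2 (chr11:58199618-58222782), which share 162 exonic bases on the plus strand.

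The promoters of 6 of the 9 members were matched in the RefSeq table of GRCm38.p6, which gives 250 bases before to 50 bases after each gene's start. Gbp6, Gbp9 and Iigp1 were not matched. Both strands were searched for the ISRE core GAAANNGAAA and the GAS core TTCNNNGAA. All 6 matched promoters held the ISRE core, which 1079 of 27025 genes of the table (3.99%) held, and 3 of the 6 held the GAS core, against 9.55% of those genes. A match is a description of the letters and not a measured binding site. The windows below run from 110 to 11 bases before the RefSeq start, on the strand of the gene, with matches in capitals. That start is not always the one of the GENCODE spans given above. The windows of Irgm1 and Irgm2 lie inside those spans, and the window of Gbp3 runs past its GENCODE start. They are shown for Gbp3 and Irgm1, which rose with age in the cerebellum, for Gbp7, which held the most separate matches, and for the near-identical pair Igtp and Irgm2.
Gbp3, chr3:142559934-142560033, plus strand: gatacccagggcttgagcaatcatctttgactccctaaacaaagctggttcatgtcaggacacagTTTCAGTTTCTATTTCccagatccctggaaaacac
Irgm1, chr11:48871431-48871530, minus strand: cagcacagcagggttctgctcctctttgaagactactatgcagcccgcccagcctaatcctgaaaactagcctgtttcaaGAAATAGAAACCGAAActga
Gbp7, chr3:142530226-142530325, plus strand: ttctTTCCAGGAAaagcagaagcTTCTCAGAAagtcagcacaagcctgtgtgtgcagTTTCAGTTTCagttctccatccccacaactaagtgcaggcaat
Igtp, chr11:58199446-58199545, plus strand: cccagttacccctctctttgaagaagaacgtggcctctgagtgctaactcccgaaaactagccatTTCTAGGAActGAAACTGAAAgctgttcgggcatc
Irgm2, chr11:58214867-58214966, plus strand: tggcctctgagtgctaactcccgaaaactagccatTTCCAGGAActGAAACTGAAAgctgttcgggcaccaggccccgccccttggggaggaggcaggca
Gbp3 and Irgm1 each held 2 ISRE cores that overlap, and a listed second start of Gbp3 held none. Gbp7 held 1 ISRE core and 2 GAS cores. In Igtp and Irgm2 a GAS core stood just before an ISRE core, and 68 of 70 bases (97.1%) of their aligned windows were the same. The Gbp2 window held 1 ISRE core. Of the type I interferon response genes, 13 of 19 with a promoter in the table held the ISRE core, and of the antigen presentation genes 3 of 15.

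The libraries were between 851288 and 23768385 counts deep (median 8889509), and 7 of 96 held under 2500000 counts. Values are CPM, a count divided by the library's total and scaled to a total of 1000000. No member was at 0 in any library, but the counts behind a value were small, from 1 to 359 reads, so single values carry a wide counting error. Region labels were checked on marker genes: the cerebellar granule cell receptor gene Gabra6 was at 354 to 544 CPM in the cerebellum and at most 1.04 CPM elsewhere. In 8 libraries (2 of cortex and 6 of hippocampus) the markers of the own region were low, among them 2 of the 4 hippocampus libraries of naive 2-month mice. One library stood apart for the members themselves. The cortex library of the 24-day plasma replicate 23, singled out after its values were seen, was the highest of 29 cortex libraries for 9 of 9 members, with for example Irgm1 at 24.9 CPM where the next library had 19.5, and Igtp at 22.4 CPM where the next had 12.9. In that library the summed type I interferon response genes (210 CPM) and the summed macrophage and monocyte markers (9.21 CPM) were also the highest of 29, whereas the summed microglia markers (368 CPM) ranked 14. Of the same mouse, the cerebellum library was the lowest of its group of 3 for 8 of 9 members, and the hippocampus library was the highest of its group for 5 of 9 and the lowest for 1. The 24-day plasma comparison in the cortex, which rests on this library, is given with and without it.

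Transcript levels differed among the members and among the regions. Per kilobase of exon, Igtp had the highest median in every region (cerebellum 3.50, cortex 4.40 and hippocampus 1.89 CPM per kb). Irgm1 was next in the cerebellum (3.34 CPM per kb) and in the cortex (2.19), and Gbp3 in the hippocampus (1.79). Iigp1 was the lowest in the cerebellum (0.524 CPM per kb) and the cortex (0.272). Gbp6 was the lowest in the hippocampus (0.256 CPM per kb) and the next to lowest in the cortex (0.288), yet reached 2.22 in the cerebellum. The ranges of neighbours in these orders overlapped over the 29 libraries of each region, so the order of adjacent genes is a description.

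**Figure D1:**
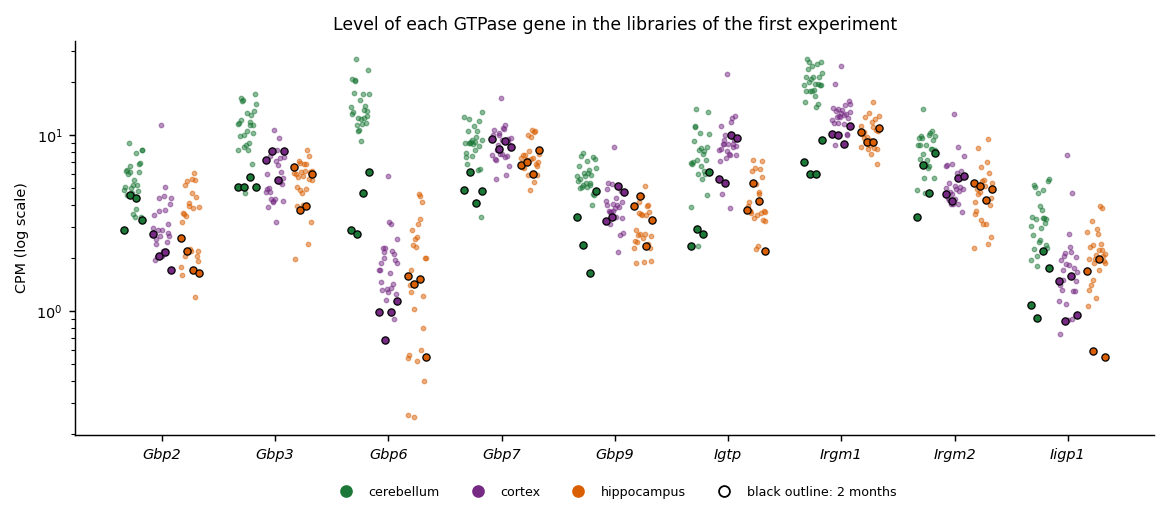
CPM of each member (log scale) in the 87 libraries of the first experiment, 1 point per library, coloured by region, with black outlines for the naive 2-month mice. Gbp6 lies highest in the cerebellum (median 13.2 CPM) and about as low in the cortex (1.72 CPM) as in the hippocampus (1.53 CPM), and the outlined points lie low in the cerebellum.

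In young naive mice, Gbp6 was the member that most separated the cerebellum from the forebrain. Its level was 4.12 ± 1.62 CPM in the cerebellum (SD, n = 4), 0.95 ± 0.191 CPM in the cortex (n = 4) and 1.27 ± 0.485 CPM in the hippocampus (n = 4). The groups did not overlap between the cerebellum and either other region. Gbp6 was higher in the cerebellum than in the cortex by 1.96 ± 0.50 on the log2 scale (SE; edgeR's quasi-likelihood test, Benjamini-Hochberg adjusted p = 0.000493). Igtp, Gbp7 and Irgm1 went the other way, lower in the cerebellum than in the cortex by log2 changes of -1.21 ± 0.33, -0.96 ± 0.23 and -0.64 ± 0.20 (adjusted p = 0.001, 0.000242 and 0.00549). Gbp3 also passed (-0.63 ± 0.28, adjusted p = 0.0495), and that call was lost in 7 of the 8 fits that left out 1 library. Thus 5 of 9 members differed, where 59.2% of all tested genes did (62.6% under an unadjusted p of 0.05), a share near the background. Between hippocampus and cerebellum 3 of 9 passed, against 59.2% of all genes (62.9% without adjustment): Gbp6 (-1.34 ± 0.46, adjusted p = 0.00958), Gbp7 (0.56 ± 0.24, adjusted p = 0.0361) and Irgm1 (0.58 ± 0.21, adjusted p = 0.0129), signed as hippocampus minus cerebellum. Without the libraries with low own-region markers 1 of these passed, Irgm1. Without the cerebellum library of replicate 20 it was again Irgm1 alone. Between hippocampus and cortex 0 of 9 passed with edgeR (12.5% of genes called), 2 were under an unadjusted p of 0.05 (24.3% of genes), and DESeq2 and limma-voom each called 1, Igtp. With low-marker libraries left out, edgeR too called Igtp.

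Gbp6 shares sequence with other genes, which bears on its counts. Of its 50-base stretches, 70.7% also occur in other genes, mostly in the predicted gene Gm43302 (65%) and in Gbp10 (45.9%), so reads of these genes may have been split or dropped by the counting, whose tool is not given in the sources used here. Gm43302 is annotated over the same place, with exons that cover 1726 of the 5954 exonic bases of Gbp6 (29%). For the other members the share of 50-base stretches found in other genes was at most 12.7% (Gbp7), with 11.8% for Igtp, shared with Irgm2. Summed over Gbp6, Gm43302 and Gbp10, the cerebellum of naive mice held 6.80 ± 2.90 CPM at 2 months (4.53 to 10.8, n = 4) and 22.7 ± 7.86 CPM at 18 months (16.5 to 31.5, n = 3). The summed ranges did not overlap, as was the case for Gbp6 alone. Strand was not kept in these libraries, so reads of overlapping antisense transcripts cannot be told apart.

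The clearest age difference of the family was in the cerebellum, where all 9 members had higher mean levels in naive mice of 18 months than of 2 months and 3 passed the test: Irgm1, Gbp6 and Gbp3. Under an unadjusted p of 0.05 were 7 members, beside 15% of genes. That is 3 of 9 members where 1.33% of 17185 tested genes passed in that direction (2.39% in either direction). The members were chosen with earlier results of these data known, so these shares stand beside them as a description. The median log2 change of the members was 0.88, beside 0.01 over all tested genes. Over the 27 comparisons made, between 44.4% and 52.8% of all genes had a log2 change above 0. The members varied together over the libraries, as given below. Counts of members that were higher, here and below, are therefore not counts of independent results. For 6 of the 9 the libraries of the ages did not overlap, beside 8.59% of all genes higher without overlap.

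Irgm1, the regulator that in mice is needed for control of many intracellular bacteria, showed the smallest adjusted p. Its libraries read 6.01, 6.05, 7.07 and 9.45 CPM at 2 months and 14.6, 16.8 and 19.7 CPM at 18 months. Every older library lay above every young one, and the change was 1.24 ± 0.19 on the log2 scale (SE, n = 4 and 3; edgeR's quasi-likelihood test, adjusted p = 0.000117). Igtp, a regulator found on the endoplasmic reticulum, read 2.36, 2.75, 2.92 and 6.16 CPM in young and 5.65, 6.68 and 7.78 CPM in older mice. One young library, replicate 20, lay inside the older range, and the change of 0.88 ± 0.31 did not pass with edgeR (adjusted p = 0.13) or DESeq2. Igtp passed with limma-voom with all libraries kept, and with edgeR without that library. Irgm2, the regulator associated with the Golgi, read 3.45, 4.67, 6.74 and 7.91 CPM against 6.53, 6.71 and 9.97 CPM. The ages overlapped widely, with a log2 change of 0.39 ± 0.26 (adjusted p = 0.529). Iigp1, the effector (chr18:60376027-60392634, plus strand), was low in all libraries, with 0.911, 1.09, 1.76 and 2.20 CPM against 2.95, 3.39 and 3.77 CPM. The ages did not overlap, but the change of 1.22 ± 0.37 did not pass (adjusted p = 0.071).

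Among the guanylate-binding proteins, Gbp6 had the largest change. It read 2.73, 2.90, 4.67 and 6.16 CPM at 2 months and 9.32, 11.7 and 17.2 CPM at 18 months, a log2 change of 1.61 ± 0.30 (adjusted p = 0.00158). The ages did not overlap. The overlapping gene Gm43302, looked at because of the shared sequence, went from 2.22 ± 1.22 to 7.87 ± 2.46 CPM (1.81, adjusted p = 0.00187). Its exons overlap those of Gbp6, so this is not a separate result. Gbp3 read 5.06, 5.08, 5.10 and 5.77 CPM against 8.24, 9.07 and 12.0 CPM, a log2 change of 0.85 ± 0.23 (adjusted p = 0.0409). The young libraries lay close together and below all older ones, but this call was lost in 6 of the 7 fits that left out 1 mouse, with adjusted p between 0.0422 and 0.178 over the 7.

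The other 3 guanylate-binding protein genes did not pass with edgeR or DESeq2. Gbp7, a protein linked to assembly of the phagocyte oxidase, read 4.12, 4.84, 4.90 and 6.20 CPM against 8.24, 9.18 and 9.77 CPM (0.80 ± 0.25, adjusted p = 0.0851). Gbp9 read 1.65, 2.37, 3.45 and 4.84 CPM against 5.18, 6.06 and 6.36 CPM (0.90 ± 0.25, adjusted p = 0.0501). For both the ages did not overlap. Limma-voom called Gbp9, as did edgeR without the young replicate 20, and edgeR fitted on the compared groups alone called Gbp7. Gbp2, which is anchored to membranes by a lipid tail, read 2.90, 3.30, 4.40 and 4.56 CPM against 3.42, 3.79 and 7.89 CPM (0.45 ± 0.27, adjusted p = 0.458). Only 1 of its older libraries lay above the young range.

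The 22 further cerebellum libraries of the injected, older mice extend this description, with age and injection both different from the young group. Irgm1 and Gbp6 were above the highest young library in 25 of 25 older libraries, naive mice included. The older range was 14.6 to 27.2 CPM (median 19.7) for Irgm1 and 9.32 to 27.3 CPM (median 13.7) for Gbp6. Gbp3 and Gbp7 exceeded the highest young library in 24 of 25, Gbp9 and Iigp1 in 22, Gbp2 in 20, Igtp in 19 and Irgm2 in 15. The young group had the lowest mean of the 8 groups for 9 of 9 members in the cerebellum, for 4 of 9 in the cortex and for 2 of 9 in the hippocampus. No share over all genes is given beside these counts. They use the same young libraries as the age comparison, so they are a description and not separate results. When the mean of the 7 older groups was set against the young group, 7 members passed in the cerebellum, all but Gbp2 and Irgm2, and 1610 genes passed in all. That contrast was added after the data were seen.

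**Figure D2:**
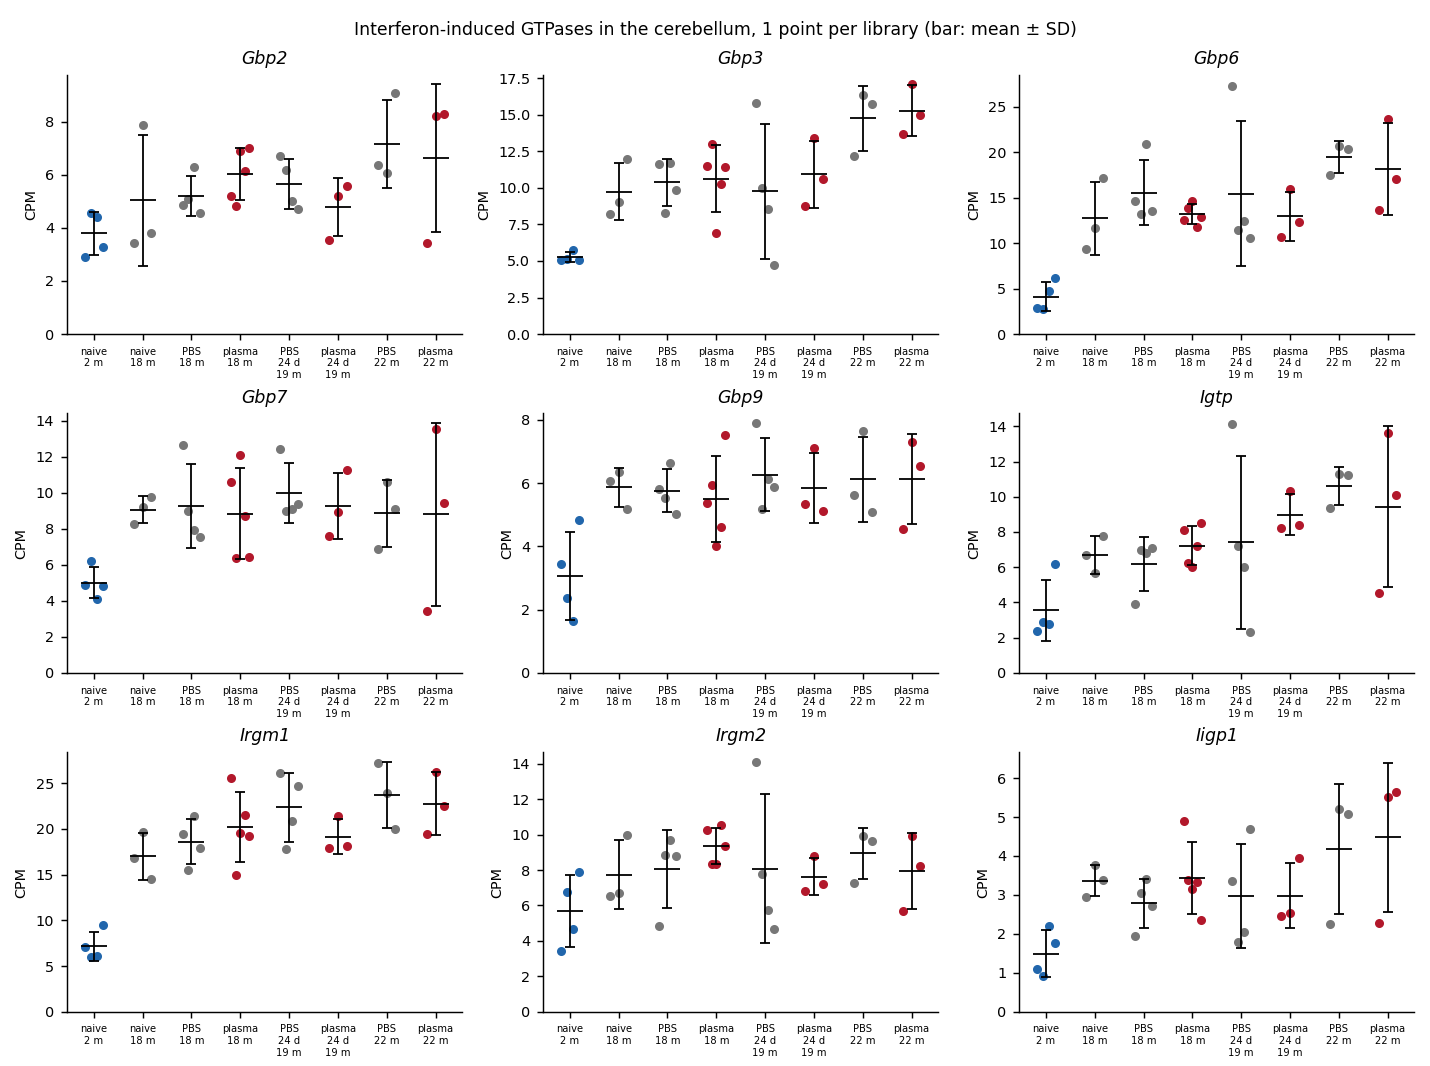
CPM of each member in the 29 cerebellum libraries, 1 point per library, by group, with bars for mean ± SD. The naive 2-month group (blue) is the lowest of the 8 groups for every member, and for Irgm1 and Gbp6 none of its libraries reaches any older library.

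Markers of microglia moved with these results. The summed 10 microglia markers were at 122 to 137 CPM in young and 178 to 198 CPM in 18-month naive cerebellum, without overlap. Of these markers 9 of 10 were higher and 4 passed, among them Cx3cr1 (0.70, adjusted p = 0.000552), Trem2 (1.30, adjusted p = 0.00486) and Tmem119 (0.85, adjusted p = 0.0183). With the microglia score as a covariate 0 of 9 members passed and 11 genes passed in all. Then 6 of 9 members were higher with a median of 0.19, and Gbp6 (1.00, unadjusted p = 0.0386) and Irgm1 (0.80, unadjusted p = 0.0101) were the members under 0.05 without adjustment. Age and the microglia sum separate the same mice, so in this design they cannot be told apart. In bulk tissue a different share of a cell type and a different amount of RNA per cell cannot be told apart either.

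Other marker lists were also read in the cerebellum. The summed T and natural killer cell markers were at 1.10 to 3.26 CPM in young and 2.19 to 5.06 CPM in older libraries, with 2 of 14 genes abundant enough to test, 0 passed, 1 under an unadjusted p of 0.05, and Ncr1 at 0 in all 29 cerebellum libraries. Macrophage and monocyte markers summed to 3.02 to 7.66 and 2.80 to 7.06 CPM, and endothelial markers to 247 to 271 and 265 to 296 CPM. Choroid plexus markers summed to 163 to 1905 CPM in young and 1766 to 2368 CPM in older libraries, with 10 of 10 higher, 0 passed and 2 under an unadjusted p of 0.05. The part of the choroid plexus share in the result was not tested.

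The genes upstream of and beside the family were read in the same fit. Of 12 interferon ligand and receptor genes 5 were abundant enough to test and 0 passed, with 0 under an unadjusted p of 0.05. The ligand genes Ifng, Ifnb1, Ifna4, Ifnl2 and Ifnl3 had no read in any of 29 cerebellum libraries. Of 19 signalling genes 13 were higher and 2 passed: Irf7, a transcription factor that is itself induced by interferon, rose from 2.07 ± 0.749 to 9.70 ± 5.07 CPM (2.16 ± 0.40, adjusted p = 0.0015), and Irf8, a factor of microglia and other myeloid cells, rose by 1.01 ± 0.27 (adjusted p = 0.0399). The median of that list was 0.18. The type I interferon response list went further, with 23 of 23 tested genes higher, 12 passed and a median of 1.31. Of these, Ifi27 rose by 1.47 (adjusted p = 7.74e-05), Ifit1 by 1.97 (adjusted p = 0.00158), Ifit3b by 1.52 (adjusted p = 0.00244) and Oasl2 by 1.77 (adjusted p = 0.00393).

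Antigen presentation genes, which carry peptides to T cells, were higher in 19 of 20 and passed in 11, with a median of 0.97. The class I heavy chain gene H2-K1 rose from 31.4 ± 2.07 to 64.6 ± 5.21 CPM (adjusted p = 1.17e-07) and its light chain B2m from 55.9 ± 3.93 to 108 ± 8.51 CPM (adjusted p = 2.37e-06). Among the other GTPases induced by interferon 10 of 20 were abundant enough to test, 7 were higher and 1 passed, Gm4951, an immunity-related GTPase gene, at 0.136 ± 0.174 CPM in young and 1.38 ± 0.190 CPM in older mice (2.97 ± 0.82, adjusted p = 0.0436).

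In the cortex and hippocampus no member passed with age. In the cortex 8 of 9 members were higher, with a median of 0.16, and 0 of 9 passed with edgeR, DESeq2 or limma-voom, where 0.112% of genes were called. One was under an unadjusted p of 0.05, beside 6.18% of genes. That one was Gbp6, with 0.685, 0.986, 0.989 and 1.14 CPM in young and 1.35, 1.65 and 3.14 CPM in older cortex (1.38 ± 0.43, unadjusted p = 0.00353, adjusted p = 0.453). These values rest on 7, 14, 5 and 6 reads in young and 5, 3 and 53 reads in older libraries. The ages of Gbp6 did not overlap, and neither did those of Iigp1, at 0.881, 0.951, 1.48 and 1.58 against 2.16, 2.31 and 2.75 CPM (log2 change 0.91), so 2 of 9 members were higher without overlap, beside 3.53% of genes. Iigp1 rests on 5 to 21 reads in young and 5 to 39 reads in older libraries. Irgm1, which had the smallest adjusted p in the cerebellum, read 8.90, 9.99, 10.1 and 11.2 CPM in young and 8.81, 11.6 and 13.0 CPM in older cortex. These overlapped, with a log2 change of 0.22.

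In the hippocampus 7 of 9 were higher, with a median of 0.23, and 0 of 9 passed with edgeR, DESeq2 or limma-voom (0.0719% of genes called). Gbp2 and Gbp6 were under an unadjusted p of 0.05, beside 6.39% of genes, and both were without overlap, beside 4.52%. Gbp2 read 1.65, 1.71, 2.20 and 2.60 CPM in young and 3.86, 4.70 and 5.61 CPM in older hippocampus (1.09 ± 0.42, unadjusted p = 0.0157, adjusted p = 0.65). Gbp6 read 0.551, 1.43, 1.53 and 1.59 against 3.13, 3.36 and 4.64 CPM (1.34 ± 0.62, unadjusted p = 0.041, adjusted p = 0.767). All the older values lay above the young ones for both genes, though the lowest young value rests on 3 reads for Gbp2 and 1 read for Gbp6. The estimates for Irgm1 (0.08) and Irgm2 (-0.33) came from overlapping ages. Of the 4 young libraries 2, replicates 14 and 20, had low hippocampus markers, and without the low-marker libraries 0 of 9 passed as well.

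Whether the age change differed by region was tested in a fit of all 87 libraries. Between cortex and cerebellum 0 of 9 members passed with edgeR, where 0.041% of 19490 genes were called. Limma-voom also called 0 of 9, and DESeq2 called 0 of the 4 members to which it gave an adjusted p. With edgeR 2 were under an unadjusted p of 0.05, beside 5.24% of genes. The age change was smaller in the cortex for 8 of 9 members, with Irgm1 at -1.03 ± 0.29 (unadjusted p = 0.000848, adjusted p = 0.364) and Gbp9 at -1.07 (unadjusted p = 0.00833, adjusted p = 0.697). Between hippocampus and cerebellum 0 of 9 passed with any of the 3 tools (0.0513% called with edgeR) and 2 were under an unadjusted p of 0.05, beside 8.65% of genes, with Irgm1 at -1.14 ± 0.30 (unadjusted p = 0.00026, adjusted p = 0.188). A regional difference in the age change of these genes therefore did not hold after adjustment over all genes tested. Between hippocampus and cortex 0 of 9 passed with any of the 3 tools (0% called) and 0 were under an unadjusted p of 0.05, beside 4.56% of genes. The age estimates of Gbp6 were 1.61 (cerebellum), 1.38 (cortex) and 1.34 (hippocampus), the last 2 with libraries of as few as 3 and 1 reads. The microglia markers summed to 371 to 450 CPM in young and 359 to 403 CPM in older cortex, and to 373 to 410 and 442 to 497 CPM in hippocampus.

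**Figure D3:**
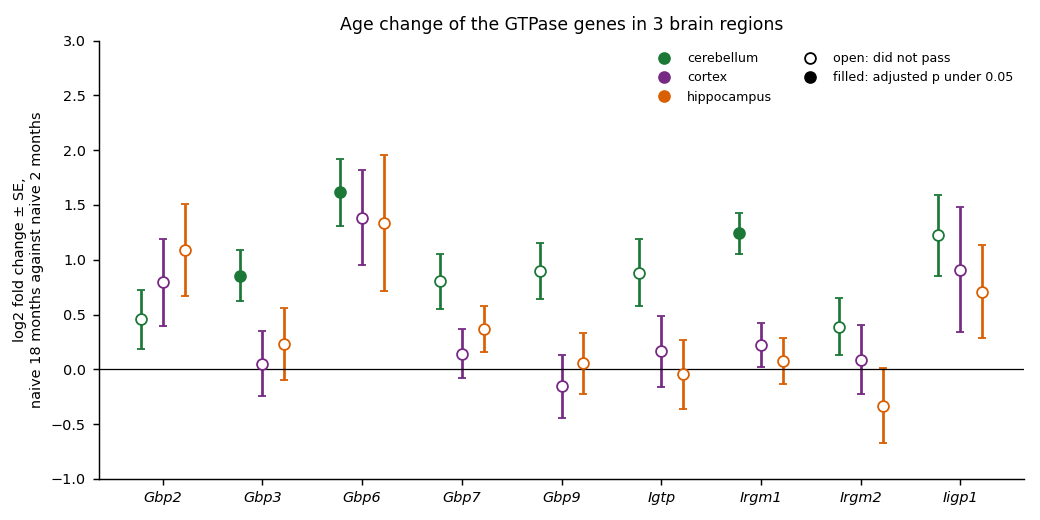
Log2 fold change ± SE of each member in naive 18-month against naive 2-month mice, in cerebellum, cortex and hippocampus; filled points had an adjusted p under 0.05 in edgeR's quasi-likelihood test. Gbp3, Gbp6 and Irgm1 are filled in the cerebellum, no point is filled elsewhere, and the bars of Gbp6 overlap between the regions.

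Between 18 and 22 months, in mice injected with PBS, no member passed. In the cerebellum 9 of 9 were higher at 22 months, with a median of 0.38, and 0 of 9 passed with edgeR or limma-voom, where 0.157% of genes were called. DESeq2 gave no adjusted p for the members. Igtp, Gbp3 and Irgm1 were under an unadjusted p of 0.05, beside 15.2% of genes. Igtp read 3.88, 6.83, 6.97 and 7.07 CPM at 18 months and 9.33, 11.2 and 11.3 CPM at 22 months, without overlap (0.63, unadjusted p = 0.0178, adjusted p = 0.217). Fitted on these groups alone, Igtp passed. Gbp3 was at 10.4 ± 1.63 CPM (n = 4) and 14.8 ± 2.24 CPM (n = 3), a log2 change of 0.54 (adjusted p = 0.17). Here too the microglia markers were higher at 22 months, at 208 to 221 CPM against 152 to 186 CPM, and Cx3cr1 (0.51) passed; their part in the result was not tested. In the cortex 3 of 9 members were higher, with 0 of 9 passed with edgeR or limma-voom (0.00533% called with edgeR) and 0 under an unadjusted p of 0.05, beside 10.9% of genes. In the hippocampus 9 of 9 were higher with 0 passed by any of the 3 tools (0% called). Irgm2 was the 1 member under an unadjusted p of 0.05 (beside 7.85% of genes), at 2.30, 3.58, 3.69 and 4.15 CPM against 4.63, 4.95 and 8.46 CPM (0.83 ± 0.32, unadjusted p = 0.0148, adjusted p = 0.558). Its groups did not overlap.

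Injection itself was read by setting PBS mice against naive mice of 18 months. No member passed in any region with edgeR, DESeq2 or limma-voom (0% of genes called with edgeR in each). In the cerebellum 5 of 9 and in the cortex 4 of 9 members were higher after PBS, with 0 under an unadjusted p of 0.05, beside 3.32% and 3.63% of genes. In the hippocampus 0 of 9 were higher, and Gbp6 and Gbp9 were under an unadjusted p of 0.05, beside 3.54% of genes. Gbp6 was at 3.13, 3.36 and 4.64 CPM in naive and 0.255, 0.538, 0.566 and 1.40 CPM in PBS hippocampus (-2.13 ± 0.68, unadjusted p = 0.00398, adjusted p = 1). The naive libraries all lay above the PBS ones, on 8, 47 and 19 reads in naive and 1, 3, 3 and 19 reads in PBS libraries. The same PBS libraries are the controls for plasma and for 22 months, and the same naive libraries stand in the age comparison, so these results share mice. Of the 4 PBS hippocampus libraries, 2 were among those with low own-region markers.

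Young plasma for 7 days in mice of 18 months gave 0 of 9 members past the threshold in every region with edgeR (0% of genes called in each), and 0 with DESeq2 and limma-voom, in the first experiment. In the cerebellum 8 of 9 were higher than in PBS mice, with a median log2 change of 0.13 and 0 under an unadjusted p of 0.05, beside 4.05% of genes. Irgm1 was at 18.6 ± 2.47 CPM after PBS (n = 4) and 20.2 ± 3.85 CPM after plasma (n = 5), and Gbp6 at 15.6 ± 3.58 and 13.2 ± 1.12 CPM. The groups overlapped for both genes, and both stayed above the naive 2-month means of 7.15 and 4.12 CPM. In the cortex 6 of 9 were higher with a median of 0.10 and 0 under an unadjusted p of 0.05, beside 4.06% of genes, and leaving out 1 library gave between 3 of 9 (without plasma replicate 1) and 8 of 9 (without plasma replicate 7). In the cerebellum that range was 6 to 8 of 9, with medians from 0.05 to 0.15.

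The hippocampus of the first experiment held the largest plasma differences. All 9 members were higher after plasma, with a median of 0.56, and 3 were under an unadjusted p of 0.05, beside 2.43% of genes. Gbp6 read 0.255, 0.538, 0.566 and 1.40 CPM after PBS and 0.602, 0.798, 1.22, 4.16 and 4.50 CPM after plasma (1.61 ± 0.61, unadjusted p = 0.0136, adjusted p = 1). The groups overlapped, and 2 plasma libraries stood above all others. The reads behind Gbp6 were 1, 3, 3 and 19 after PBS and 1, 7, 17, 53 and 69 after plasma. Irgm2 read 2.30, 3.58, 3.69 and 4.15 CPM against 2.41, 3.99, 6.11, 7.04 and 9.58 CPM (0.85 ± 0.29, unadjusted p = 0.0066, adjusted p = 1). Iigp1 read 1.08, 1.32, 1.99 and 2.81 CPM against 2.05, 2.23, 2.41, 3.85 and 3.98 CPM (0.75 ± 0.34, unadjusted p = 0.0366, adjusted p = 1). For both the groups overlapped. Leaving out 1 library at a time left 8 or 9 members higher and between 1 and 6 under an unadjusted p of 0.05, with 1 without plasma replicate 1, 2 without PBS replicate 5, 5 without plasma replicate 4 and 6 without plasma replicate 13. The share of all genes under 0.05 in these fits is not given, so the counts cannot be set beside a background. Among the mice of these groups that shared the number in the titles, 1 PBS and 2 plasma mice, both plasma values were above the PBS value for Gbp3, Irgm2 and Iigp1 but not for Gbp6, which read 1.40 CPM after PBS and 0.798 and 1.22 CPM after plasma. The summed choroid plexus markers ranged from 151 to 4219 CPM over these plasma libraries, and their part in the values was not tested.

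The second experiment repeated this hippocampus comparison in other mice. There 3 of 9 members were higher after plasma, with a median of -0.09. With edgeR 0 passed (0% called), with limma-voom 0, DESeq2 gave no adjusted p, and 0 were under an unadjusted p of 0.05, beside 7.96% of genes. Gbp6 read 0.688, 0.865, 2.06 and 2.87 CPM after PBS and 0.693, 1.49, 1.83, 1.98 and 4.70 CPM after plasma (0.39 ± 0.48). Irgm2 read 2.35, 3.85, 5.19 and 5.95 CPM against 1.89, 2.61, 2.92, 3.70 and 5.58 CPM (-0.34 ± 0.31). The groups overlapped for both genes, and the estimate for Irgm2 had the opposite sign to that of the first experiment. Without plasma replicate 76, 1 of 9 was higher and 3 were under an unadjusted p of 0.05, and without PBS replicate 70, 5 of 9 were higher. For these fits too the share of all genes under 0.05 is not given. The plasma effect was smaller in the second experiment for 9 of 9 members, and the test of that difference called 0 of 9 with edgeR (0% of genes), DESeq2 and limma-voom. Irgm2 (-1.19 ± 0.45, unadjusted p = 0.0145) and Gbp9 (-0.90 ± 0.40, unadjusted p = 0.0339) were under 0.05 without adjustment, beside 3.1% of genes. Over both experiments 9 of 9 were higher with a median of 0.16, 0 passed (0% called) and 2 were under an unadjusted p of 0.05, Gbp6 (0.88, unadjusted p = 0.0444) and Iigp1 (0.56, unadjusted p = 0.0133), beside 9.7% of genes. This rested in part on single libraries: without plasma replicate 1 of the first experiment 7 of 9 were higher with a median of 0.06, without plasma replicate 76 of the second 7 of 9 with 0.08, without PBS replicate 5 of the first 7 of 9 with 0.09, and without PBS replicate 70 of the second 9 of 9 with 0.31.

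**Figure D4:**
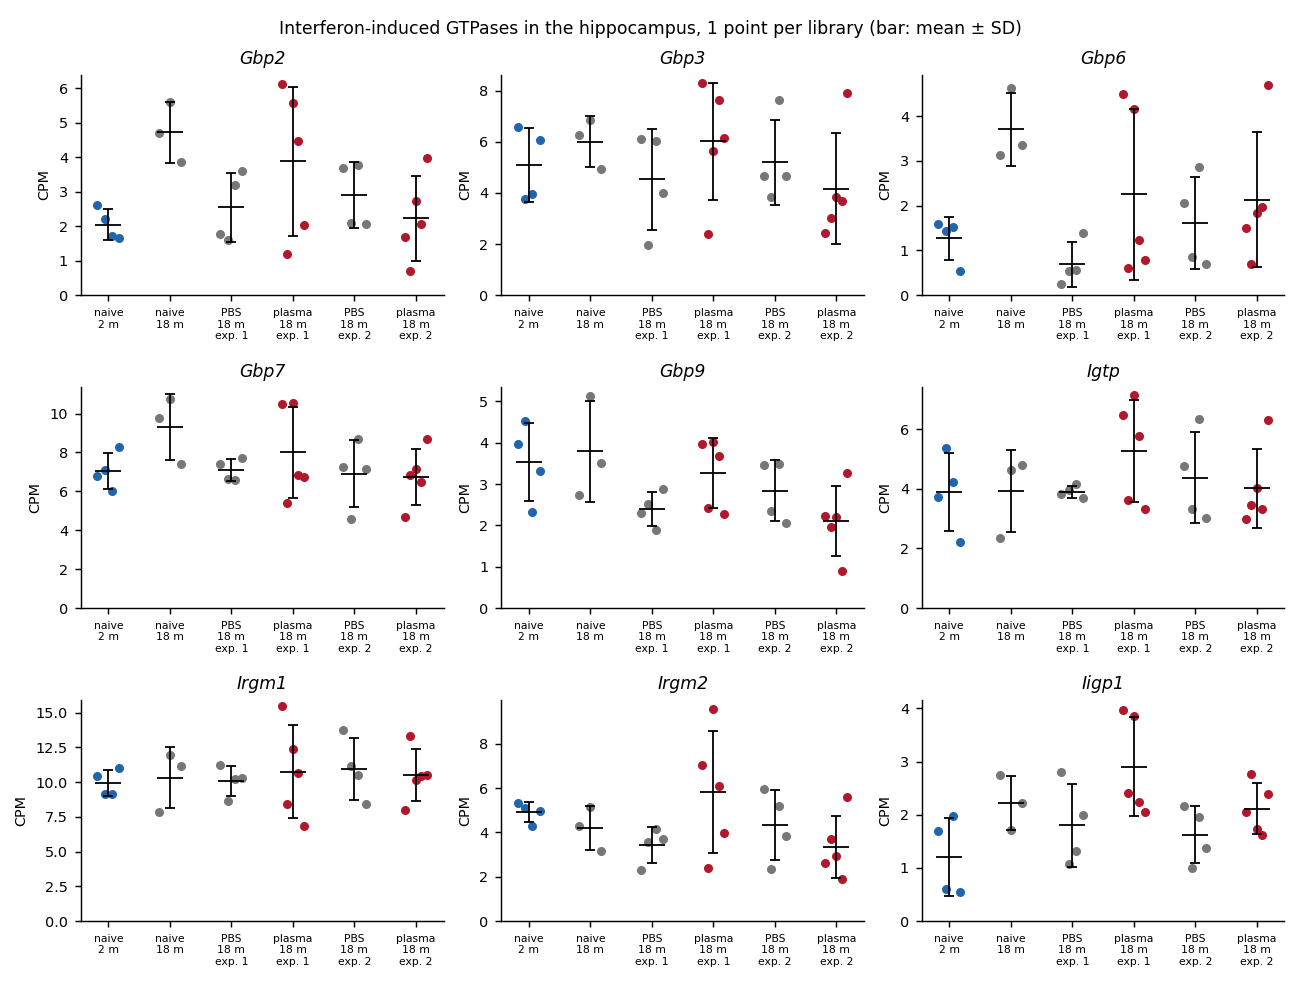
CPM of each member in hippocampus libraries of naive mice and of PBS and plasma mice of 18 months in both experiments, 1 point per library, with bars for mean ± SD. For Gbp6 the naive 18-month libraries lie above the PBS libraries of the first experiment, and the plasma libraries overlap the PBS libraries in both experiments.

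Plasma at 22 months and for 24 days also gave 0 of 9 members past the threshold in each region with edgeR, DESeq2 and limma-voom (0% of genes called with edgeR in each). At 22 months 7 of 9 members were higher in the cerebellum, 8 of 9 in the cortex and 0 of 9 in the hippocampus, with 0 under an unadjusted p of 0.05, beside 2.28%, 5.64% and 1.68% of genes. These counts moved with single libraries: in the cerebellum 3 of 9 were higher without plasma replicate 19 (median -0.05) and 5 of 9 without PBS replicate 15, against 9 of 9 without plasma replicate 16 or 22. The cerebellum library of plasma replicate 16 held only 877031 counts and was the lowest of its group for 9 of 9 members. In the cortex 5 of 9 were higher without plasma replicate 22, with a median of 0.07 in place of 0.20, and in the hippocampus 2 of 9 without plasma replicate 16 or PBS replicate 21. After 24 days at 19 months 3 of 9 were higher in the cerebellum, and 7 of 9 without the PBS replicate 24, whose cerebellum was the highest of its group for 8 of 9 members. In the hippocampus 2 of 9 were higher, and between 1 and 5 with 1 library left out. In both regions 0 were under an unadjusted p of 0.05, beside 6.67% and 3.91% of genes. In the cortex 9 of 9 were higher, with a median of 0.48, and Gbp6 (0.79 ± 0.38, unadjusted p = 0.0474) and Irgm1 (0.39 ± 0.18, unadjusted p = 0.0412) were under 0.05 without adjustment, beside 3.52% of genes. Irgm1 read 11.7, 12.7, 12.8 and 14.2 CPM after PBS and 13.5, 14.0 and 24.9 CPM after plasma in that region. The highest of these is the cortex library that stood apart, and without it 4 of 9 members were higher, 0 were under an unadjusted p of 0.05 and the median was -0.05. Leaving out any other single library of these groups kept 9 of 9 higher, with 0 to 6 under an unadjusted p of 0.05 and medians from 0.38 to 0.77. No share of all genes under 0.05 is given for the fits with 1 library left out.

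**Figure D5:**
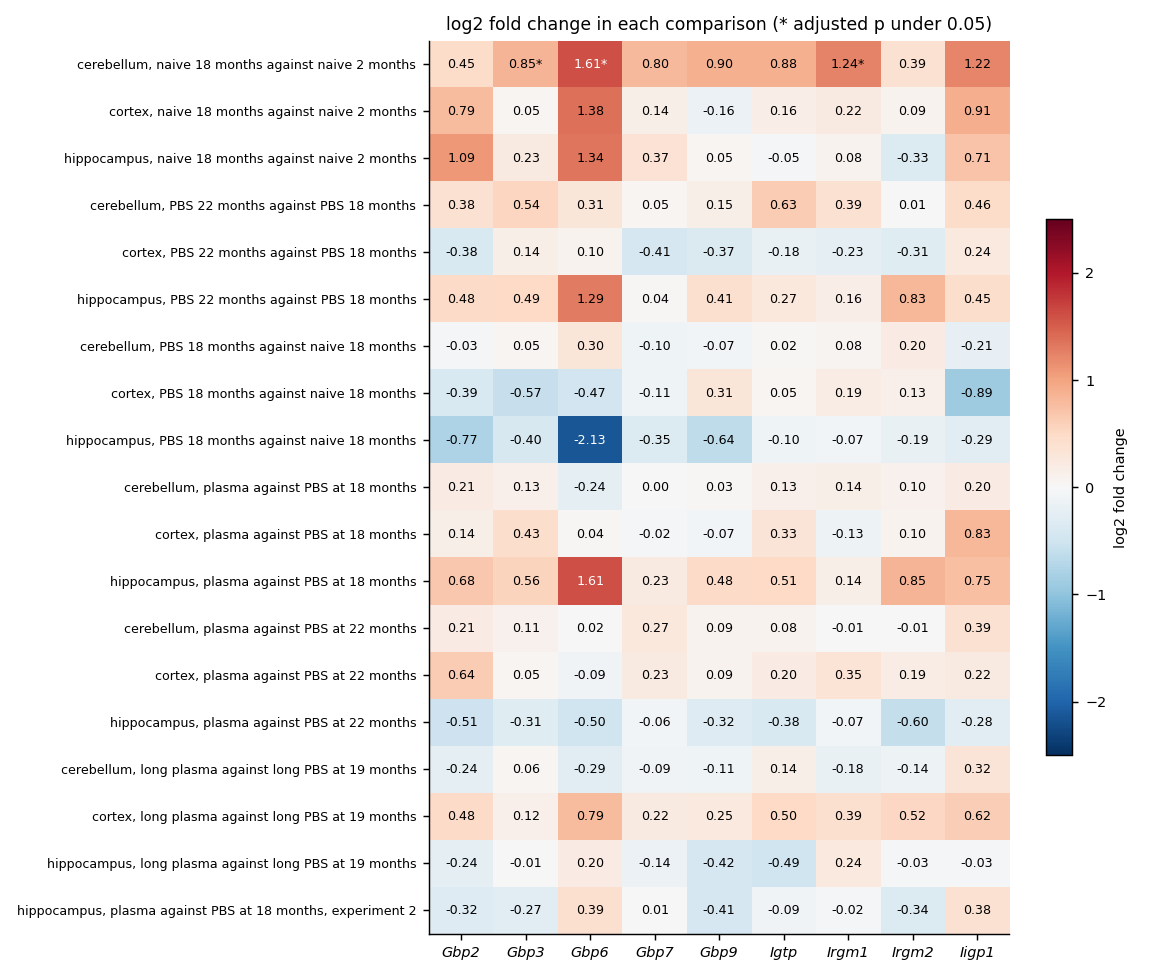
Log2 fold change of each member (columns) in 19 comparisons (rows), red for higher and blue for lower in the first-named group, with a star for an adjusted p under 0.05. The 3 stars, at Gbp3, Gbp6 and Irgm1, all stand in the row for naive 18 against 2 months in the cerebellum, and the deepest blue is Gbp6 in PBS against naive hippocampus (-2.13).

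The members varied together over the 87 libraries of the first experiment once each region's mean was taken out. The Pearson correlation of a member with the mean of the other 8 ran from 0.567 for Iigp1 to 0.746 for Gbp6. Within the cerebellum it ran from 0.637 to 0.914, and for Iigp1 in the hippocampus it was 0.285. Of 17234 other genes with a mean of at least 1 CPM, the genes whose profile was most like the mean of the members included Ifit1 (r = 0.843), Ifit3 (0.771), Gm28177 (0.767), Oasl2 (0.749), Irf7 (0.727), Ifit3b (0.720) and Rnf213 (0.717). Ifit1 encodes a protein that binds foreign RNA. These are descriptions over libraries that share mice, depth and the age difference. They include the cortex library that stood apart, and the correlations were not computed without it.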

How the data were processed

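The submitters dissected cerebellum, cortex and hippocampus, made cDNA with Smart-Seq2 and libraries with Nextera XT, per the labels' protocols; the libraries are unstranded. Reads were handled with Trim Galore 0.3.7, STAR 2.5.3a and DESeq2 on GRCm38, per the submitters' processing notes, which give no roles. The counting tool and annotation are not given in the sources used here. The deposited table holds raw read counts, not normalized, for 35486 gene symbols and 96 libraries, and these counts were the start of all values here. CPM is a count divided by the library's total, times 1000000.

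Each region of the first experiment was fitted on all 8 groups with edgeR 4.0.16 (R 4.3.3): TMM normalization, filterByExpr with a minimum count of 10 and total of 15, and the quasi-likelihood test with Benjamini-Hochberg adjustment over all tested genes and a threshold of 0.05. Regions were compared in 1 fit of 87 libraries, and the second experiment was fitted alone and with the first. DESeq2 1.42.0 and limma 3.58.1 (voom with quality weights) were alternatives, as were other normalization, no filter, the compared groups alone, libraries left out and a microglia covariate. Promoters were read from the RefSeq table. The fits were tested on simulated data. The 3 libraries of a mouse come from the same animal per the labels; deviations from the group means of same-mouse libraries had a median correlation of 0.0427 (cerebellum and cortex), 0.0376 (cerebellum and hippocampus) and 0.0845 (cortex and hippocampus) over 29 mice, so a fit with the mouse as block was also run. Within a region each library is 1 mouse. Reads carry no molecular identifiers, so counts are not independent molecules. Libraries ranged from 851288 to 23768385 counts.

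All 9 members are followed in every comparison. Of other lists the genes past the threshold are named, at most 4 per list by smallest p, and the 8 genes most like the members by Pearson correlation of log2 CPM (prior count 2) centred on each region. Some genes that this rule names are not reported here. The members and lists were chosen with earlier results of these data known.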

Additional observations from a re-analysis of the deposited data

Results flagged for a closer look

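In groups of 4 or 5 libraries, 9 of 126 sets of values held a library whose gap to the nearest other was large against the range of the group (Dixon's criterion at 95%), where chance flags about 1 in 20. In the cerebellum these were Gbp3 in the naive 2-month replicate 17 (5.77 CPM), Igtp in the naive 2-month replicate 20 (6.16 CPM), Igtp in the 18-month PBS replicate 2 (3.88 CPM, the lowest of its group), and Gbp6 (27.3 CPM) and Gbp7 (12.4 CPM) in the 24-day PBS replicate 24. In the cortex they were Gbp3 in the 24-day PBS replicate 26 (8.08 CPM) and Iigp1 in the 18-month plasma replicate 1 (4.71 CPM). In the hippocampus they were Gbp6 in the naive 2-month replicate 20 (0.551 CPM, the lowest) and Gbp3 in the plasma replicate 76 of the second experiment (7.89 CPM). Gbp6 in replicate 20 rests on 1 read and Igtp in PBS replicate 2 on 4 reads. Gbp3 in replicate 17 rests on 21 reads. The part of counting error in these flags was not tested.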

How the results depend on the processing

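Of 27 comparisons, 24 had 0 members past the threshold, and 377 of 384 alternative settings of these also gave 0. For the 3 calls of naive 18 against 2 months in the cerebellum and the regional calls, 140 of 173 settings kept the call, 33 lost it and 0 changed direction. In the cerebellum age comparison 3 members passed. Limma-voom gave 5, the microglia covariate 0, and the mean of the 7 older groups, added after the data were seen, 7. Leaving out 1 mouse gave 2 to 4. In the cerebellum 22 against 18 months under PBS, the compared groups alone gave 1. Between young hippocampus and cortex, DESeq2, limma-voom and leaving out the low-marker libraries gave 1 each, and leaving out 1 library 0 to 1. Between young hippocampus and cerebellum, limma-voom and leaving out the low-marker libraries gave 1 each, and leaving out 1 library 1 to 3. The cause of these shifts was not tested.

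With the mouse as replicate block, the pairing of the 3 regions of a mouse, 5 members passed between young cerebellum and cortex, 3 between hippocampus and cerebellum and 0 between hippocampus and cortex, and 0 for each of the 3 differences in age change; it changed no other call. The second number in the titles differs wholly between the naive ages and in the other comparisons for which this is stated at the start. Groups hold 3 to 5 mice, and the members rest on 1 to 359 reads per library.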
